A study of Mus musculus with 6 samples.

Results

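Collagen is made inside the cell as procollagen and becomes a stable fibre only after a series of enzymatic modifications. Prolyl 4-hydroxylases hydroxylate prolines and so stabilize the triple helix, lysyl hydroxylases hydroxylate lysines, and the secreted lysyl oxidases then oxidize lysines and hydroxylysines, which form the covalent crosslinks between collagen molecules and, in elastic fibres, between elastin molecules. The hydroxylases need iron, 2-oxoglutarate and ascorbate, and the lysyl oxidases need copper. In white adipose tissue these enzymes are made largely by fibroblasts and adipocyte progenitors, and several of their genes are known to respond to hypoxia.

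The expression of 10 genes of this group was examined, out of 47069 gene identifiers in the counts: the lysyl oxidases *Lox*, *Loxl1*, *Loxl2*, *Loxl3* and *Loxl4*, the lysyl hydroxylases *Plod1*, *Plod2* and *Plod3*, and the prolyl 4-hydroxylase alpha subunits *P4ha1* and *P4ha2*. They were chosen by name, with earlier results of these data known. All 10 were found in the counts and passed the filter on low counts. RNA came from the inguinal subcutaneous white adipose tissue (SC-WAT) of 3 *Egr1*+/+ and 3 *Egr1*-/- female mice of the C57BL/6 strain, 2 weeks old and untreated, with 1 library per mouse. EGR1 is a zinc finger transcription factor. The *Egr1*-/- mice carry, in every tissue from conception, an allele with *LacZ* inserted in the 5′ untranslated region and a frameshift before the DNA-binding domain. Both genotypes came from crosses of *Egr1*+/- mice. The 6 mice came from fewer litters than there were mice, and 1 mouse of each genotype shared a litter. Not all of them were therefore independent. The litter of each mouse is not given, so no test here accounts for it.

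Total counts per mouse lay between 29661984 and 42357981, of which 50.0% to 66.3% fell on mitochondrial genes, the highest share in *Egr1*-/- replicate 1. *Egr1* itself had 10.3, 8.02 and 16.5 CPM (counts scaled to the effective size of each library) in *Egr1*+/+ replicates 1 to 3. It had 3.09, 2.71 and 1.84 CPM in *Egr1*-/- replicates 1 to 3, without overlap. Its log2 fold change was -2.19, with a standard error of 0.299 and an edgeR adjusted p of 0.0878 (DESeq2 adjusted p = 4.9e-10), and no library went against its label. The adipocyte markers *Adipoq*, *Plin1*, *Fabp4* and *Cidec* were abundant in all libraries, as the tissue label states, with 8013 to 8620 CPM summed over 8 adipocyte markers in *Egr1*+/+ mice and 6379 to 8043 CPM in *Egr1*-/- mice.

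Genomic sequence before the start site was at hand for 5 of the 10 genes (RefSeq, GRCm38.p6), in windows of 250 bases before to 50 bases after the start. The pieces printed here hold the core letters of the hypoxia response element, ACGTG or GCGTG, with every core in capitals (CACGT is ACGTG read on the opposite strand), since hydroxylase genes are known for this kind of control. The start sites are those of RefSeq. That of *P4ha2* lies 829 bases inside the GENCODE gene given later, and the others lie within 9 bases of the GENCODE start.
P4ha1, chr10:59323270-59323299, plus strand: tgacagagcgCACGTagcgagggctgcggc
P4ha2, chr11:54100836-54100865, plus strand: tgcatcgcatACGTGcagcGCGTGgcggct
Plod3, chr5:136986955-136986984, plus strand: tgaagtcattACGTGatgttcccttggaga
Plod1, chr4:147936777-147936806, minus strand: gcgggcggagGCGTGcgcggcaccgccccc
A core on either strand was found in all 5 windows, that of *Loxl4* included, and in 43.8% of the 32851 promoter windows of the genome, so the letters are common. The EGR1 motif was searched as GCGTGGGCG and GCGGGGGCG on both strands (the first of these contains GCGTG). It was in 0 of the 5 windows and in 3.47% of all windows. These matches are descriptions of the letters and not binding sites.

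Per kilobase of annotated exons, *Lox*, the founding lysyl oxidase, was the highest of the 10 genes. In TPM (reads per exon length, scaled to the same sum over genes outside the mitochondrial genome in every mouse), its level was 129.8 ± 20.0 (SD, n = 3) in *Egr1*+/+ mice. *P4ha1* followed with 82.6 ± 7.67 TPM, then *Loxl2* with 57.1 ± 2.36 and *Loxl1* with 53.8 ± 2.92 TPM. *Plod3* had 44.9 ± 4.50 and *Plod1* 40.6 ± 1.51 TPM. *Plod2* had 20.4 ± 3.22, *P4ha2* 17.01 ± 1.09, *Loxl3* 16.8 ± 1.001 and *Loxl4* 1.58 ± 0.44 TPM (SD, n = 3 *Egr1*+/+ mice for each gene). Within this order, the mice overlapped between *Loxl2* and *Loxl1*, between *Plod3* and *Plod1*, and among *Plod2*, *P4ha2* and *Loxl3*. The other neighbours did not overlap. The order depends on the length used. With the longest coding transcript in place of all exons, *Plod1* (59.8 TPM in *Egr1*+/+ mice) stood above *P4ha1* (59.3 TPM) and *Plod3* (43.7 TPM), and *P4ha2* (33.1 TPM) above *Plod2* (21.2 TPM), while *Lox* was still the highest (92.5 TPM).

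Within the families, the shares of the genes overlapped between genotypes, except for *Loxl3*. *Lox* held 49.9% ± 4.42 of the lysyl oxidase level per length in *Egr1*+/+ mice and 52.3% ± 1.70 in *Egr1*-/- mice (SD, n = 3 in each). Among the lysyl hydroxylases, the share of *Plod2* was 21.2%, 15.5% and 21.2% in *Egr1*+/+ replicates 1 to 3, against 13.5%, 13.3% and 15.9% in *Egr1*-/- replicates. *Egr1*+/+ replicate 2 lay within the range of the *Egr1*-/- mice. *Loxl3* held 6.38% to 6.61% of the lysyl oxidase level in *Egr1*+/+ mice, just above the 4.51% to 6.37% of *Egr1*-/- mice. The share of *P4ha1* in the sum of *P4ha1* and *P4ha2* was 82.9% ± 1.51 in *Egr1*+/+ and 84.4% ± 1.76 in *Egr1*-/- mice (SD, n = 3 in each). A further alpha subunit gene, *P4ha3*, was left out of this sum (mean 5.76 TPM in *Egr1*+/+ and 3.53 TPM in *Egr1*-/- mice). The summed level of *P4ha1* and *P4ha2* was 92.2 to 107.7 TPM in *Egr1*+/+ mice and 72.9 to 77.5 TPM in *Egr1*-/- mice, without overlap. That of the lysyl hydroxylases was 100.8 to 108.7 TPM against 95.6 to 99.1 TPM, and that of the lysyl oxidases 240.9 to 275.6 TPM against 187 to 246.7 TPM, where only *Egr1*-/- replicate 1 reached the *Egr1*+/+ range.

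**Figure D1:**
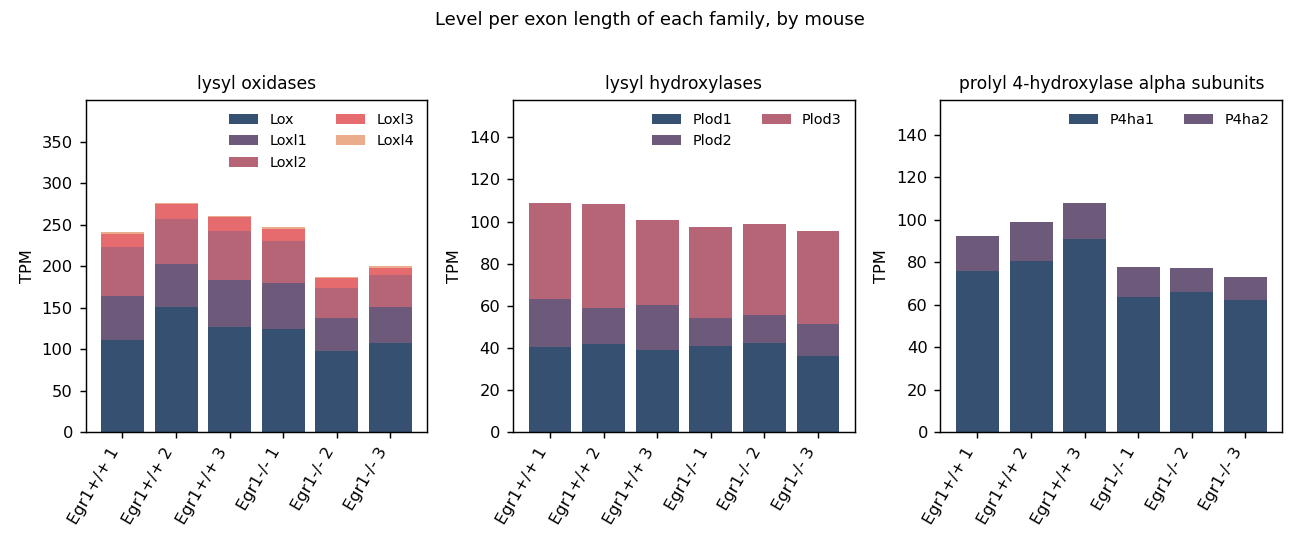
Level per exon length (TPM, y axis) of the lysyl oxidases, lysyl hydroxylases and prolyl 4-hydroxylase alpha subunits in each of the 6 mice (x axis), stacked by gene. *Lox* makes up 49.9% of its family in *Egr1*+/+ mice. *P4ha1* and *P4ha2* together, without *P4ha3*, stand at 72.9 to 77.5 TPM in *Egr1*-/- mice against 92.2 to 107.7 TPM in *Egr1*+/+ mice.

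All 10 genes had a negative log2 fold change in *Egr1*-/- SC-WAT, from -0.60 to -0.07 with a median of -0.35, where 49.9% of the 17667 genes tested were negative and the median of all genes was 0.0011. None of the 10 passed the adjusted threshold of 0.05 in edgeR's quasi-likelihood test, nor in DESeq2 or limma-voom. Of all genes tested, 0.0170% passed in edgeR (0 lower and 3 higher in *Egr1*-/- mice) and 1.84% in DESeq2 (1.14% lower). At an unadjusted p under 0.05 there were 5 of the 10 genes, *Loxl2*, *Loxl3*, *Plod2*, *P4ha1* and *P4ha2*, all lower in *Egr1*-/- mice, where 10.7% of all genes tested reached that p, 5.60% lower and 5.06% higher. In the same 5 genes every *Egr1*-/- mouse was below every *Egr1*+/+ mouse, where 16.3% of all genes tested did not overlap, 8.10% lower and 8.15% higher. In whole tissue, fewer cells of a type and less RNA per cell cannot be told apart, and this holds for each value here.

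**Figure D2:**
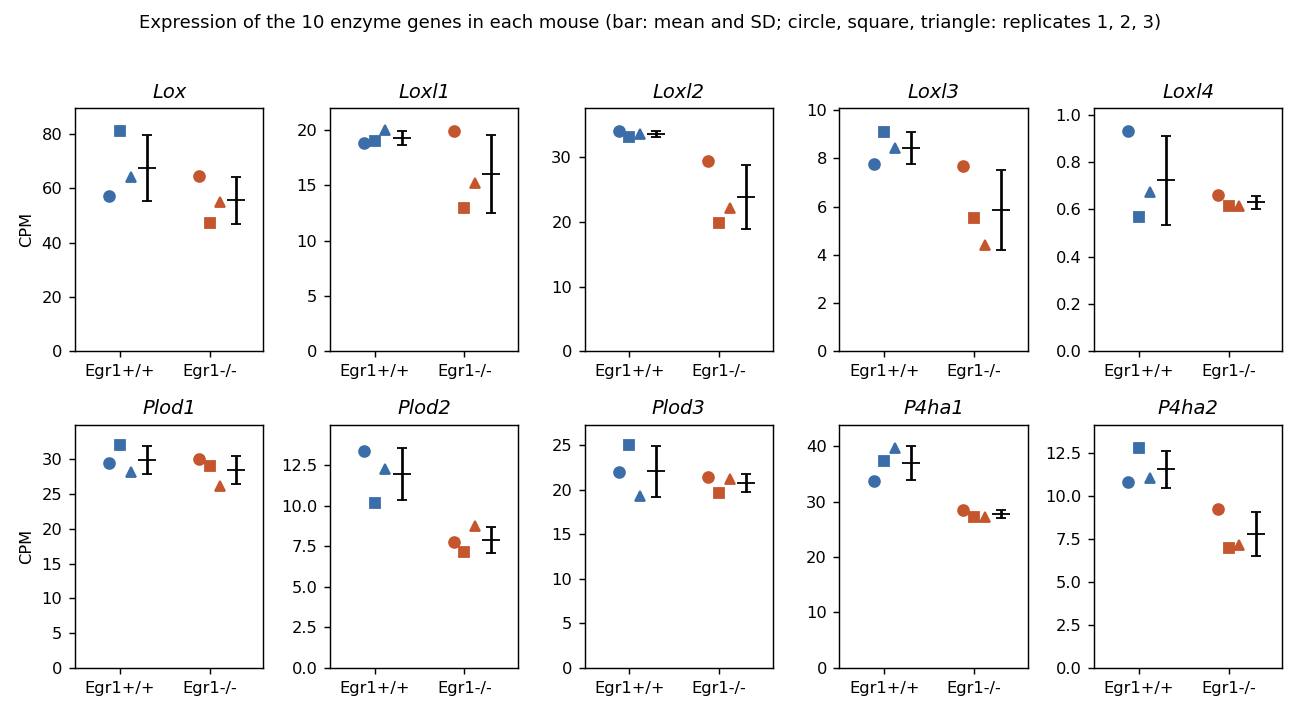
CPM (y axis, from 0) of the 10 enzyme genes in each *Egr1*+/+ and *Egr1*-/- mouse, with the mean and SD of 3 mice beside the points. *Loxl2*, *Loxl3*, *Plod2*, *P4ha1* and *P4ha2* show no overlap between the genotypes, with *Egr1*-/- mice lower, while *Lox*, *Loxl1*, *Loxl4*, *Plod1* and *Plod3* overlap.

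*P4ha1* and *P4ha2* encode the catalytic alpha subunits of prolyl 4-hydroxylase, which forms a tetramer with the protein disulfide isomerase encoded by *P4hb*. *P4ha1* (ENSMUSG00000019916.14, GRCm38 chromosome 10, 59323296 to 59373304) had 33.6, 37.3 and 39.7 CPM in *Egr1*+/+ replicates 1 to 3 and 28.6, 27.3 and 27.3 CPM in *Egr1*-/- replicates 1 to 3. The *Egr1*-/- mice lay close together, all below the lowest *Egr1*+/+ mouse. Its log2 fold change was -0.41 (standard error 0.108, 95% interval -0.66 to -0.17, edgeR adjusted p = 0.231). *P4ha2* (ENSMUSG00000018906.14, chromosome 11, 54100095 to 54131665) had 10.8, 12.8 and 11.04 CPM in *Egr1*+/+ mice and 9.28, 7.01 and 7.14 CPM in *Egr1*-/- mice. *Egr1*-/- replicate 1 was the nearest to the *Egr1*+/+ mice. The log2 fold change of *P4ha2* was -0.56 (standard error 0.158, interval -0.92 to -0.21, edgeR adjusted p = 0.257).

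The remaining subunits of this enzyme lay on the same side. *P4hb*, far more abundant with 195.7 ± 10.1 CPM in *Egr1*+/+ mice and 140.9 ± 10.96 CPM in *Egr1*-/- mice (SD, n = 3 in each), had a log2 fold change of -0.47 (edgeR adjusted p = 0.227, standard error 0.117). It passed the threshold in DESeq2 (adjusted p = 0.0136) but not in edgeR. *P4ha3*, the least expressed alpha subunit at 1.96 CPM in *Egr1*+/+ and 1.16 CPM in *Egr1*-/- mice, had a log2 fold change of -0.75 (edgeR adjusted p = 0.410, standard error 0.297). For both genes every *Egr1*-/- mouse was below every *Egr1*+/+ mouse.

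*Plod2* encodes the lysyl hydroxylase that acts on the ends of the collagen molecule, the telopeptides, and thereby sets the type of crosslink. *Plod2* (ENSMUSG00000032374.14, chromosome 9, 92542223 to 92608428) had 13.4, 10.2 and 12.2 CPM in *Egr1*+/+ mice and 7.74, 7.13 and 8.73 CPM in *Egr1*-/- mice. All *Egr1*-/- mice were below the lowest *Egr1*+/+ mouse. Its log2 fold change was -0.60 (standard error 0.153, interval -0.95 to -0.25, edgeR adjusted p = 0.227), the largest in size of the 10 genes, and its DESeq2 adjusted p of 0.0646 was the lowest among them.

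*Plod1* and *Plod3* encode the lysyl hydroxylases of the helical part of the molecule, and the *Plod3* product also carries glycosyltransferase activity. *Plod1* (ENSMUSG00000019055.15, chromosome 4, 147909753 to 147936767) had 29.4, 32.1 and 28.1 CPM in *Egr1*+/+ mice and 30.1, 29.0 and 26.2 CPM in *Egr1*-/- mice. *Plod3* (ENSMUSG00000004846.10, chromosome 5, 136987019 to 136996648) had 21.98, 25.0 and 19.3 CPM in *Egr1*+/+ mice and 21.4, 19.6 and 21.2 CPM in *Egr1*-/- mice. The genotypes overlapped in both genes. The log2 fold changes were -0.07 for *Plod1* (interval -0.32 to 0.18) and -0.09 for *Plod3* (interval -0.37 to 0.20), with edgeR adjusted p-values of 0.866 and 0.851. The intervals include 0 and values on both sides, so equal expression was not shown. *Plod3* overlaps *Znhit1* on the opposite strand, and whether the authors counted by strand is not given in the sources used here.

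*Loxl2* and *Loxl3* encode lysyl oxidases with scavenger receptor domains. *Loxl2* (ENSMUSG00000034205.16, chromosome 14, 69609068 to 69695834) had 34.0, 33.03 and 33.6 CPM in *Egr1*+/+ mice, which were nearly alike, and 29.3, 19.9 and 22.2 CPM in *Egr1*-/- mice. The spread lay almost wholly in the *Egr1*-/- group, whose replicate 1 stood above the other *Egr1*-/- mice. Its log2 fold change was -0.49 (standard error 0.149, interval -0.83 to -0.16, edgeR adjusted p = 0.285). *Loxl3* (ENSMUSG00000000693.10, chromosome 6, 83034173 to 83052562) had 7.77, 9.09 and 8.42 CPM in *Egr1*+/+ mice and 7.68, 5.52 and 4.43 CPM in *Egr1*-/- mice. Here *Egr1*-/- replicate 1 nearly met the lowest *Egr1*+/+ mouse. The log2 fold change of *Loxl3* was -0.52 (standard error 0.209, interval -0.99 to -0.05, edgeR adjusted p = 0.423). *Loxl3* overlaps the protein-coding gene *Htra2* on the opposite strand, and *Lox*, *Loxl2* and *Plod2* overlap annotated non-coding or unassigned genes there.

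*Lox* (ENSMUSG00000024529.13, chromosome 18, 52516067 to 52529867) had 57.4, 81.2 and 64.2 CPM in *Egr1*+/+ mice and 64.7, 47.2 and 54.9 CPM in *Egr1*-/- mice. The genotypes overlapped, with *Egr1*-/- replicate 1 above *Egr1*+/+ replicates 1 and 3. Its log2 fold change was -0.28 (standard error 0.164, interval -0.65 to 0.09, edgeR adjusted p = 0.600). *Lox* is the only one of these genes on the chromosome of *Egr1*, 17.7 Mb away from it. *Loxl1*, whose product is known for the crosslinking of elastin (ENSMUSG00000032334.9, chromosome 9, 58287738 to 58313186), had 18.8, 19.0 and 19.9 CPM in *Egr1*+/+ mice and 19.9, 12.9 and 15.2 CPM in *Egr1*-/- mice. *Egr1*-/- replicates 2 and 3 were below all *Egr1*+/+ mice, and replicate 1 was within their range. The log2 fold change of *Loxl1* was -0.27 (standard error 0.159, interval -0.63 to 0.09, edgeR adjusted p = 0.605).

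*Loxl4* (ENSMUSG00000025185.14, chromosome 19, 42593982 to 42612813) was near the limit of what the depth can show, with 32, 17 and 29 counts in *Egr1*+/+ replicates 1 to 3, against 22, 19 and 19 counts in *Egr1*-/- replicates. The genotypes overlapped. Its log2 fold change was -0.20 with a wide interval, -1.02 to 0.62 (edgeR adjusted p = 0.886). A moderate difference in either direction was not detectable at this depth.

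**Figure D3:**
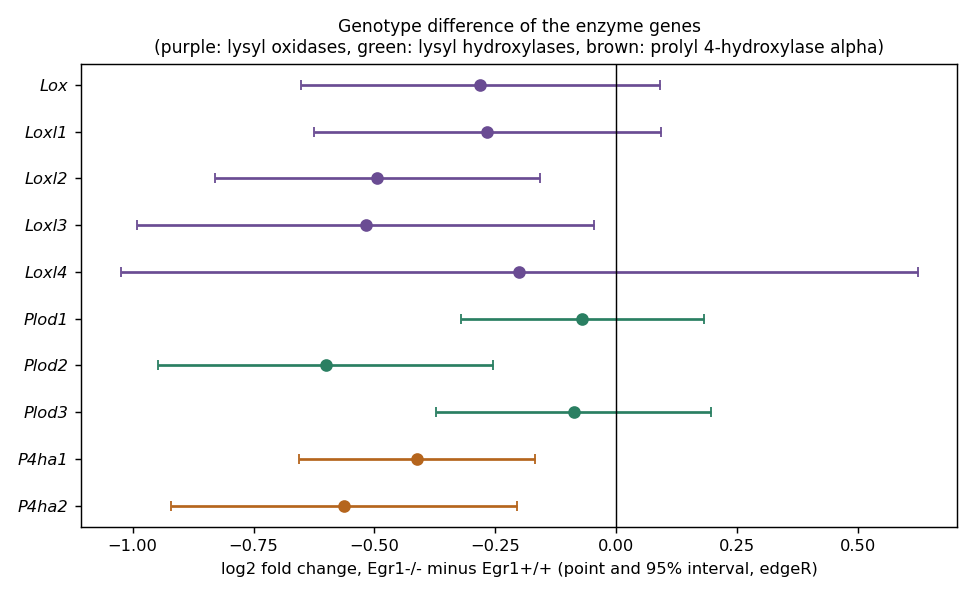
Log2 fold change between genotypes (x axis, *Egr1*-/- minus *Egr1*+/+) of the 10 enzyme genes with the 95% interval of edgeR's quasi-likelihood fit. The points run from -0.60 for *Plod2* to -0.07 for *Plod1*, and the intervals of *Loxl2*, *Loxl3*, *Plod2*, *P4ha1* and *P4ha2* lie below 0 before adjustment for the number of genes tested.

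*Egr1*-/- replicate 1 was the highest of its genotype in 9 of the 10 genes, all but *Plod2*. Without it, the log2 fold changes of *Loxl1*, *Loxl2* and *Loxl3* were -0.45, -0.67 and -0.76, that of *Lox* was -0.40 and that of *P4ha2* was -0.70. In that fit 7 of the 10 genes had an unadjusted p under 0.05, where 13.0% of all genes tested did, and 0 passed the adjusted threshold, the lowest adjusted p being 0.0618 for *Loxl2* (edgeR). The values of *Plod1* (-0.11), *Plod3* (-0.11) and *Plod2* (-0.59) without it were close to those with all mice. Other mice left out made some differences smaller. *Lox* was at -0.13 without *Egr1*+/+ replicate 2 and -0.17 without *Egr1*-/- replicate 2, *Loxl1* at -0.13 without *Egr1*-/- replicate 2, and *Loxl3* at -0.35 without *Egr1*-/- replicate 3. With any single mouse other than *Egr1*-/- replicate 1 left out, 4 to 6 of the 10 genes had an unadjusted p under 0.05, where 6.38% to 11.0% of all genes did. *Loxl2*, *Plod2*, *P4ha1* and *P4ha2* were among them each time, and *Loxl3* only without *Egr1*+/+ replicate 1.

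*Col1a1*, *Col1a2* and *Col3a1*, the main fibril-forming chains that these enzymes modify, had log2 fold changes of -0.62, -0.58 and -0.61, with edgeR adjusted p-values of 0.242, 0.245 and 0.260. They passed the threshold in DESeq2, with adjusted p-values of 0.0106, 0.0106 and 0.0080. For every 1000 counts on these 3 collagens, *Lox* had 12.9, 14.8 and 13.4 in *Egr1*+/+ replicates 1 to 3, against 17.1, 17.1 and 17.6 in *Egr1*-/- replicates. *Plod1* had 6.61, 5.83 and 5.86 counts against 7.95, 10.5 and 8.39 counts per 1000. *P4ha2* had 2.43, 2.33 and 2.30 counts against 2.45, 2.53 and 2.29 counts, nearly the same in all mice. All 3 *Egr1*-/- mice had a higher ratio than the highest *Egr1*+/+ mouse in 4 of the 10 genes and in 52.9% of all genes tested, since the collagens themselves were lower. The 4 were *Lox*, *Loxl1*, *Plod1* and *Plod3* (exact permutation test against no difference in ratio, two-sided p = 0.1 in each, the smallest that 3 mice against 3 allow, and 0.25 after Benjamini-Hochberg adjustment over the 10 genes).

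In the other 6 genes the ratio overlapped between genotypes. The differences in mean log2 ratio were 0.34 for *Lox*, 0.32 for *Loxl1*, 0.54 for *Plod1* and 0.53 for *Plod3*. They were 0.02 for *Plod2*, 0.04 for *P4ha2*, 0.06 for *Loxl3*, 0.10 for *Loxl2*, 0.21 for *P4ha1* and 0.44 for the low *Loxl4*. All 10 differences were above 0, as were 93.7% of those of the 17598 tested genes with counts in all mice, whose median was 0.62. All 10 enzyme genes lay below that median. The shared denominator moves every gene alike, so these positions largely restate the log2 fold changes. *Plod2*, *P4ha2*, *Loxl3* and *Loxl2* were the nearest to 0, and *Plod1* and *Plod3* the nearest to the median of all genes. For *Plod2* and *Loxl3* the sign turned with some single mice left out, from -0.17 to 0.17 and from -0.030 to 0.23.

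**Figure D4:**
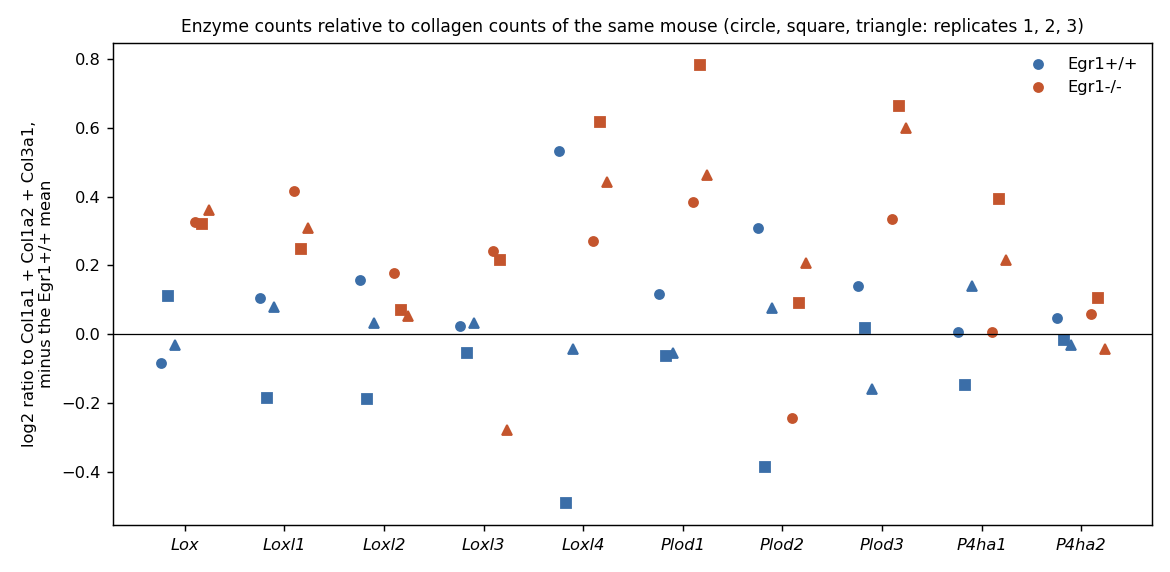
Log2 ratio of each enzyme's counts to the summed counts of *Col1a1*, *Col1a2* and *Col3a1* in the same mouse, minus the *Egr1*+/+ mean (y axis), for the 10 genes (x axis). *Egr1*-/- mice lie above all *Egr1*+/+ mice in *Lox*, *Loxl1*, *Plod1* and *Plod3*, as they do in 52.9% of all genes tested, and overlap with them in the other 6 genes.

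The other genes of collagen production were counted in lists of known function. Of 22 genes of collagen modification, folding and export, 0 passed the adjusted threshold in edgeR and 2 in DESeq2 (*P4hb* and *Tmem38b*), where 1.84% of all genes passed. At an unadjusted p under 0.05 there were 8 lower and 1 higher in *Egr1*-/- mice, where 5.60% and 5.06% of all genes were. The median log2 fold change was -0.30 against 0.0011 for all genes. The lower ones with the smallest p were *P4hb* and *Fkbp7*, an endoplasmic reticulum prolyl isomerase (log2 fold change -0.44, standard error 0.126). *Serpinh1*, which encodes the collagen chaperone HSP47, had a log2 fold change of -0.35, and *Ppib*, which encodes cyclophilin B, one of -0.31. The opposite direction was seen in *Tmem38b*, which encodes an ion channel of the endoplasmic reticulum, at 9.37 CPM in *Egr1*+/+ and 13.9 CPM in *Egr1*-/- mice (log2 fold change 0.57, standard error 0.125, edgeR adjusted p = 0.190, DESeq2 adjusted p = 0.0410). *Colgalt1*, which encodes a collagen galactosyltransferase acting on hydroxylysine, had a log2 fold change of 0.08.

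Among 8 tested genes of procollagen processing, 5 were lower and 1 higher at an unadjusted p under 0.05, with a median of -0.41. Of all genes, 5.60% were lower and 5.06% higher at that p. Past the adjusted threshold were 0 in edgeR and 2 in DESeq2, where 1.84% of all genes passed. *Pcolce2*, an enhancer of C-propeptide removal, had genotype means of 25.9 and 13.1 CPM (log2 fold change -0.98, standard error 0.255), and *Adamts2*, the N-propeptidase, of 58.9 and 40.1 CPM (log2 fold change -0.56, standard error 0.151). Their adjusted p-values were 0.229 and 0.245 in edgeR and 0.0093 and 0.0457 in DESeq2. *Tll1*, a protease related to *Bmp1*, had a log2 fold change of -0.42, and *Bmp1* itself, which also activates the LOX proenzyme, one of -0.44.

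In the list of crosslinked substrates, 6 of 11 tested genes were lower at an unadjusted p under 0.05 and 0 were higher, with a median of -0.52. Of all genes, 5.60% were lower at that p, and 1.14% passed the threshold as lower in DESeq2. Past the adjusted threshold were 0 in edgeR and 4 in DESeq2, all lower (*Col1a1*, *Col1a2*, *Col3a1* and *Col5a2*). *Col5a2*, a chain that sets fibril diameter, had the smallest p (log2 fold change -0.67, standard error 0.146). *Eln*, which encodes elastin, had a log2 fold change of -0.35 (edgeR adjusted p = 0.445, standard error 0.148). The basement membrane chains *Col4a1* and *Col4a2* had 0.02 and -0.04. Of 13 partners of lysyl oxidases in the matrix, 8 were lower at an unadjusted p under 0.05 (5.60% of all genes) and 0 were higher, with a median of -0.55. Past the adjusted threshold were 0 in edgeR and 6 in DESeq2, all lower, led by *Lum*, *Fbn1* and *Fn1* (log2 fold changes -0.82, -0.88 and -0.75). *Lum*, *Fbn1* and *Dpt* of this list are also on the fibroblast list, and *Eln* is on both this list and that of the substrates.

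Of 14 tested genes that supply metal ions and ascorbate, 10 had a positive and 4 a negative log2 fold change, where 49.9% of all genes were negative. At an unadjusted p under 0.05, 4 were higher and 1 lower, where 5.06% and 5.60% of all genes were. The median was 0.17 against 0.0011 for all genes. The adjusted threshold was passed by 0 in edgeR and by *Tfrc* and *Commd1* in DESeq2, where 1.84% of all genes passed. *Tfrc*, which encodes the transferrin receptor for iron uptake, had 306 CPM in *Egr1*+/+ and 845 CPM in *Egr1*-/- mice on average, with no overlap (log2 fold change 1.47, standard error 0.273, edgeR adjusted p = 0.160, DESeq2 adjusted p = 9.1e-07). *Gsto1*, whose product reduces dehydroascorbate, had a log2 fold change of 0.47. *Slc31a1*, the copper importer, had a log2 fold change of 0.39, and *Commd1*, a regulator of copper transport, one of -0.67. *Atp7a*, which delivers copper to the lysyl oxidases in the secretory pathway, had a log2 fold change of -0.0074.

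Among 26 tested hypoxia-response genes outside the 10 enzymes, 4 were higher and 1 lower at an unadjusted p under 0.05, with a median of 0.08. Of all genes, 5.06% were higher and 5.60% lower at that p. The adjusted threshold was passed by 0 in edgeR and by *Hk2* in DESeq2, where 1.84% of all genes passed. *Hk2*, which encodes hexokinase 2, had a log2 fold change of 0.94 (standard error 0.189), *Pfkfb3* of 0.47 and *Ndrg1* of -0.46. Of the 26, 8 had a negative and 18 a positive log2 fold change, where 49.9% of all genes were negative. All 10 enzyme genes were negative, among them *P4ha1*, *P4ha2* and *Plod2*, which also belong to this response. A part of hypoxia in these values was not tested. *Hif1a* had a log2 fold change of -0.07.

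**Figure D5:**
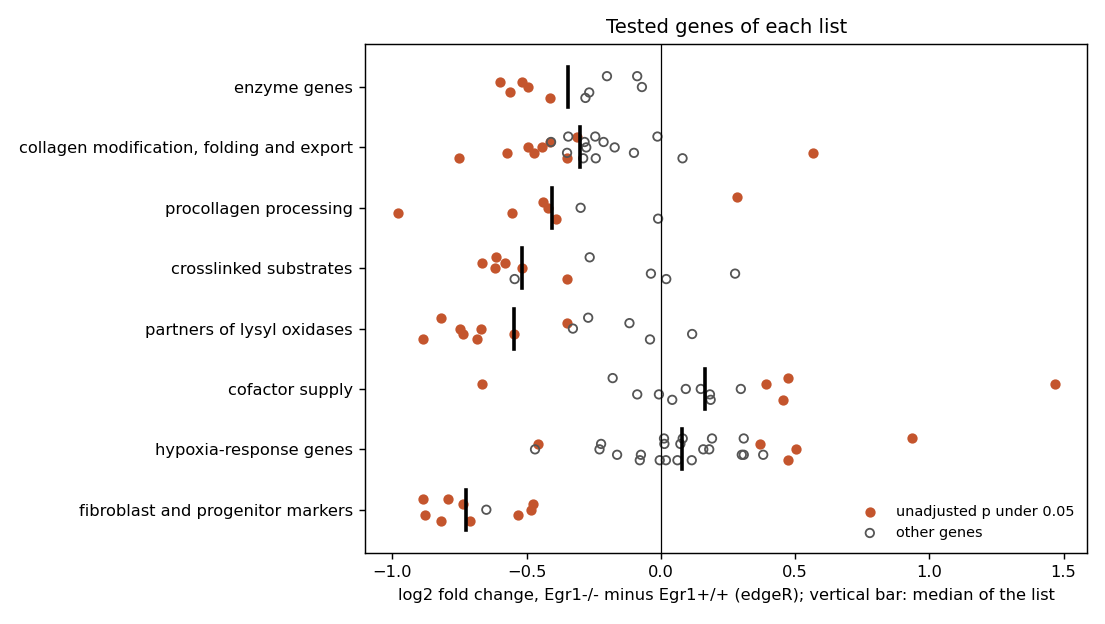
Log2 fold change (x axis, *Egr1*-/- minus *Egr1*+/+) of the tested genes in each list, with the median as a vertical bar and genes at an unadjusted p under 0.05 filled. The enzyme genes have a median of -0.35. The medians are -0.30 for collagen modification, folding and export, -0.41 for procollagen processing, -0.52 for the substrates and -0.55 for the partners. They are 0.17 for cofactor supply, 0.08 for the hypoxia-response genes and -0.72 for the fibroblast and progenitor markers.

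Summed markers of several cell types stood apart between genotypes, and their part in the enzyme values was not tested. The 10 fibroblast and progenitor markers summed to 1829.9 to 1854 CPM in *Egr1*+/+ mice and to 926 to 1340.5 CPM in *Egr1*-/- mice, the highest of the latter in replicate 1. All 10 had a negative log2 fold change, 9 at an unadjusted p under 0.05, and the median was -0.72. Of all genes, 49.9% were negative and 5.60% were lower at that p. Relative to the sum of these markers, which was itself lower in *Egr1*-/- mice, the enzyme genes differed by 0.21 on the log2 scale for *Plod2* up to 0.74 for *Plod1*, below the median of 0.81 over all genes. The difference was above 0 in 10 of 10 enzyme genes and in 96.6% of all genes. It was without overlap in *Lox*, *Loxl1*, *Loxl2*, *Plod1* and *Plod3*, 5 of 10, and in 66.4% of all genes tested. Neither count sets the enzymes apart. The shared denominator moves every gene alike, so lying below the median largely restates the negative log2 fold changes. The 6 beige adipocyte markers summed to 488 to 637 CPM in *Egr1*+/+ and 881 to 1477 CPM in *Egr1*-/- mice.

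The 8 macrophage markers gave 248.7 to 366 CPM in *Egr1*+/+ mice and 180.4 to 248.4 CPM in *Egr1*-/- mice. Replicate 1 of each genotype thus almost touched. The 8 Schwann cell and nerve markers gave 255 to 360.4 against 173 to 226 CPM, with *Th* at 0 counts in all mice. Of the 6 tested nerve markers, 5 had a negative and 1 a positive log2 fold change, where 49.9% of all genes were negative. The sums overlapped for endothelial markers (415 to 507 and 379 to 568 CPM), mural cells (486 to 686 and 403 to 616 CPM), lymphocytes (112 to 132 and 92.96 to 243 CPM) and mammary epithelium (3.52 to 14.8 and 8.76 to 11.6 CPM). Skeletal muscle markers ran from 195 to 3139 CPM in *Egr1*+/+ and from 92.1 to 2485 CPM in *Egr1*-/- mice, with the highest values in *Egr1*+/+ replicate 2 and *Egr1*-/- replicate 3.

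After the mean of each genotype was taken out, the enzyme genes followed different partners over the 6 mice. Among 93 genes of the lists, the one with the highest Pearson correlation was *Col1a2* for *Lox* (r = 0.99), and *Col5a2* for *Loxl1* (r = 0.998) and *Loxl2* (r = 0.989). It was *Fbln5*, an elastic fibre gene, for *P4ha2* (r = 0.979). For *P4ha1*, *Plod2* and *Loxl3* it was a gene of the hypoxia list, *Bnip3l* (r = 0.992), *Hif1a* (r = 0.975) and *Ndrg1* (r = 0.963). That list supplied 26 of the 93 candidates. Whether its genes came up more often than its size gives was not tested. *Plod1* was nearest to *Col11a1* (r = 0.886), *Plod3* to *Slc11a2* (r = 0.943) and *Loxl4* to *Col4a2* (r = 0.899). Among all pairs of the enzymes themselves, *Loxl1* and *Loxl2* had the highest r, 0.981, and *Plod1* and *Plod2* the lowest, -0.77. These values describe 6 mice that share libraries and normalization. The highest of 93 is high by selection, and the 2 enzyme pairs are likewise extremes.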

How the data were processed

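SC-WAT RNA of 3 *Egr1*+/+ and 3 *Egr1*-/- mice was sequenced after ribosomal RNA depletion with a strand-specific kit. The authors mapped the reads to GRCm38 with TopHat and Bowtie, counted them per GENCODE gene with featureCounts, and deposited these counts as whole numbers that are not normalized. Strand and multimapping settings are not given in the sources used here. Genotypes came from the sample titles.

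Of 47069 identifiers, 46574 were matched by Ensembl ID to GENCODE M21, whose exons gave positions and lengths. The test was edgeR 4.0.16's quasi-likelihood test in R 4.3.3 (TMM normalization, filterByExpr, 17667 genes), with Benjamini-Hochberg adjustment over all genes tested and a threshold of 0.05. Standard errors were derived from the F statistic and 95% intervals from the t quantile of the fit, before adjustment. DESeq2 1.42.0 and limma 3.58.1 were alternatives, beside other normalizations, filters, a replicate block, and leaving out each mouse. DESeq2 was run on the genes kept by filterByExpr, with its own independent filtering, which is on by default, switched off. Correlations used log2 CPM with a prior count of 2. Ratios to collagens used raw counts and exact permutation tests over mice. Tests were tried on simulated data. The enzyme genes and lists were chosen with earlier results of these data known. Named genes are the enzymes, *Egr1*, *P4ha3*, *P4hb*, *Col1a1*, *Col1a2*, *Col3a1*, *Eln*, the 3 lowest p of each list and the most correlated list gene. *Serpinh1*, *Ppib*, *Colgalt1*, *Bmp1*, *Col4a1*, *Col4a2*, *Dpt*, *Slc31a1*, *Atp7a*, *Hif1a* and *Th* were named after their values were seen.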

Additional observations from a re-analysis of the deposited data

How the results depend on the processing

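The 10 enzyme genes kept a negative log2 fold change in 137 of 139 values under alternatives, and none of the 139 passed the adjusted threshold. The exceptions were *Loxl4* without *Egr1*+/+ replicate 1 and *Plod3* without *Egr1*+/+ replicate 2. With a mouse left out these ran from -0.34 to 0.0023 and from -0.18 to 0.0094. At an unadjusted p under 0.05 there were 5 of the 10 in each alternative test, normalization and filter, where 7.49% to 12.3% of all genes were. With a mouse left out there were 4 to 7, where 6.38% to 13.0% of all genes were. The number of all genes past the threshold, 3 in edgeR, was 325 in DESeq2, 1 in limma-voom, 552 without the filter on low counts, and 0 with upper-quartile normalization, with at least 1 CPM in 3 mice and with the replicate block. With a mouse left out it ran from 0 to 59, the latter without *Egr1*-/- replicate 1. *Egr1* passed in DESeq2 (log2 fold change -2.19) and without the filter (-2.18), also without *Egr1*-/- replicate 1 (-2.35), and ran from -2.39 to -1.84 with a mouse left out. Of 93 genes of the other lists, 0 passed in edgeR, 17 in DESeq2, 14 of 99 without the filter, and 0 to 2 with a mouse left out. The cause of these differences was not tested.

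With the replicate number as a block, 0 of the 10 genes passed and 5 had an unadjusted p under 0.05, where 10.8% of all genes did. Same-numbered mice correlated at -0.09, 0.11 and -0.13 after genotype means were removed, and differently numbered mice at -0.17 to 0.23. With 3 mice a genotype, these values cannot decide whether the numbers mark pairs. The ratio to collagens was higher in *Egr1*-/- mice in 10 of 10 genes and in 93.7% of all genes with counts in all mice. The block could not change this count, since with equal groups its mean difference equals the difference of the genotype means. The count was also 10 with each other denominator, where 96.6% of all genes were higher relative to the fibroblast markers. With a mouse left out it was 8 to 10. The difference in mean log2 ratio turned negative for *Plod2* without *Egr1*+/+ replicate 2 or *Egr1*-/- replicate 2 or 3 (from -0.17 to 0.17 with a mouse left out). For *Loxl3* it did so without *Egr1*-/- replicate 1 or 2 (from -0.030 to 0.23). The fibroblast denominator was added after seeing the data. With the longest coding transcript as length, *Plod1* held 48.0% of its family and *P4ha1* 64.1% of the sum of *P4ha1* and *P4ha2*. With all exons these shares were 38.4% and 82.9%. With 3 mice a genotype, differences under the intervals given cannot be shown.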
